A study of Mus musculus with 48 samples.

Results

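Sorted olfactory bulb cells from mice with a floxed Slc22a3 gene were compared between a group labelled as a conditional knockout (Slc22a3-cKO) and a flox control group, across all genes of the deposited table. The comparison holds 6 of the 48 RNA sequencing libraries of the series, chosen by their labels, with 3 libraries in each group. The 3 libraries labelled Slc22a3-cKO carry the genotype label Slc22a3-FF and the treatment label Gfap-Cre, and the 3 flox control libraries carry the same genotype with the treatment label Gfap-mCh. Both groups are therefore Slc22a3-floxed, and they differ by label in what was driven from the promoter of Gfap, an astrocyte filament gene: the recombinase Cre or the red fluorescent protein mCherry (mCh) alone. The sample titles call the cells of both groups mCh astrocytes, whereas the column names of the table give RFP for the cKO-labelled libraries and mCh for the flox controls. Age, sex and the number of animals are not in the labels, and the spread between libraries that the p-values rest on may be technical. Both groups were prepared from 10 ng of total RNA, and all values below are normalised reads, which are read counts divided by a size factor for each library.

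Slc22a3 encodes an organic cation transporter that moves serotonin, noradrenaline, dopamine and histamine across the cell membrane, and in the brain it is known from astrocytes among other cells. Many of the genes that differed belong to the interferon response, which works as follows. Interferon-gamma, made mainly by T cells and natural killer cells, acts through its receptor and the Janus kinases on STAT transcription factors, which bind GAS elements in promoters. These induce IRF1, and IRF factors and the STAT complexes of the type I interferon pathway bind ISRE elements. The targets include chemokines that attract T cells, the guanylate-binding proteins (GBPs) and immunity-related GTPases (IRGs), which are large GTPases that attack the vacuoles of intracellular pathogens, and the class I and class II antigen presentation genes, the last through the coactivator Ciita. In the brain, microglia are the main cells that mount this response, and astrocytes can also mount it.

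Depth, in units of 1000000 assigned reads, was 8.47, 13.4 and 7.50 in the cKO-labelled libraries and 9.69, 12.5 and 8.91 in the flox controls. The ribosomal RNA precursor Rn45s took between 9.03% and 18.7% of the reads of a library. Slc22a3 itself (chromosome 17 between 12418960 and 12507704 on mm10) had 0, 0 and 12 reads in the cKO-labelled libraries and 0, 0 and 0 in the flox controls (exact two-sided permutation test p = 1, with 0.1 the smallest p that 3 against 3 allows). The targeted gene was thus at 0 in every flox control, where a count of 0 allows up to 3 reads, and the reads gave no check of the knockout label. The cells were labelled astrocytes, but microglial markers were prominent. The summed level of 18 microglia markers was 11162, 14677 and 7133 RPM (reads scaled to a library total of 1000000) in the cKO-labelled libraries and 11180, 6607 and 14792 RPM in the flox controls, and the groups overlapped. The sum of 16 astrocyte markers was 3695, 1925 and 5090.1 RPM in the cKO-labelled libraries, against 6219, 13373 and 6779 RPM in the flox controls, lower in each cKO-labelled library. Part of this sum is Slc1a2, a gene called lower that is described below. In bulk libraries of sorted cells, fewer cells of a type and less RNA per cell cannot be told apart. In green fluorescent astrocytes of the Gq-CNO group from the same tissue, the astrocyte sum ran between 61376 and 70955 RPM and the microglia sum between 159 and 249 RPM. The third cKO-labelled library stood apart from the other 5 on the second principal component, which took 22.3% of the variance, while the first component (43.9%) separated the groups. Without this library, 545 genes were called higher and 732 lower, so counts below are given with all 6 libraries and, where they moved, without it.

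Of 13465 genes tested, 341 (2.53%) differed at a limma adjusted p under 0.05, with 184 (1.37%) higher and 157 (1.17%) lower in the cKO-labelled libraries. Genes called higher included all tested GBP and IRG genes, most tested class II genes and 5 of 22 complement genes, and genes called lower included 8 of 35 synaptic genes and 3 of 12 oligodendrocyte precursor markers. Over 7 interferon-related lists with 157 tested genes, 75 were called higher and 0 lower, and these 75 made up 40.8% of all genes called higher. The median log2 change over these 157 genes was 2.06, beside a median of -0.10 over all genes tested. Quantile scaling moved the median of all genes to 0.0067, so a change of 0.1 on the log2 scale lies within the choice of scaling. edgeR called 158 genes higher and 119 lower, of which 264 were shared with limma. Every gene called had groups that did not overlap, as did 22.7% of all genes tested. Among the 184 genes called higher, the third cKO-labelled library was the lowest of its group for 154, and among the 157 called lower it was the highest of its group for 87. The counts moved with single libraries: 49, 47 and 545 genes were called higher without cKO-labelled library 1, 2 or 3, and 122, 92 and 124 without flox control library 1, 2 or 3. The matching counts called lower were 32, 34 and 732 for the cKO-labelled libraries and 27, 13 and 88 for the flox controls.

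**Figure D1:**
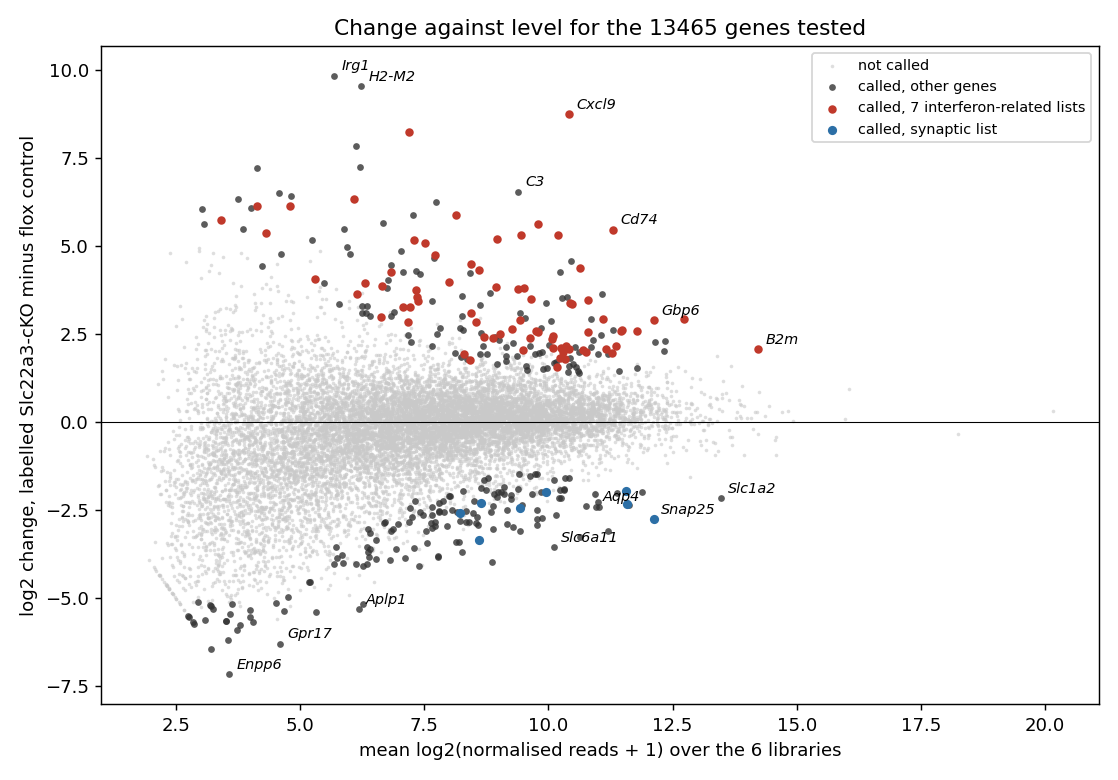
Log2 change (cKO-labelled libraries minus flox controls, vertical axis) against the mean log2 level over the 6 libraries (horizontal axis), 1 point a gene for 13465 genes. Red points are the 75 called genes of 7 interferon-related lists, all above 0, blue points are the 8 called genes of the synaptic list, all below 0, dark grey points are other called genes, and light grey points were not called.

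Among called genes whose higher group mean reached 182 normalised reads, the largest rises included immune genes that were at or near 0 in the flox controls. Irg1, also known as Acod1, encodes the enzyme that makes the antimicrobial metabolite itaconate in activated macrophages (chromosome 14 between 103046977 and 103056573). It had 2278, 1933 and 859.6 normalised reads in the cKO-labelled libraries and 0, 0 and 4.11 in the flox controls, so it was present in each cKO-labelled library and nearly absent from each control. Its log2 change was 9.82 (SE 0.896, adjusted p = 0.000243). H2-M2, a class Ib histocompatibility gene, had 3226, 3644 and 725 in the cKO-labelled libraries and 0, 0 and 20.5 in the flox controls (log2 change 9.52, SE 1.16, adjusted p = 0.00168). Serpina3f, a serine protease inhibitor induced by interferon-gamma in macrophages, had 1277, 1509.7 and 605 in the cKO-labelled libraries and 6.37, 5.78 and 1.03 in the flox controls (log2 change 7.82, adjusted p = 0.000356). The lowest cKO-labelled library was 35.3 times the highest control for H2-M2 and 95.0 times for Serpina3f.

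The complement protein C3, the protein at which the complement pathways meet, had 9297, 11020.3 and 2614 normalised reads in the cKO-labelled libraries and 147, 41.2 and 52.4 in the flox controls, a log2 change of 6.54 (SE 0.587, adjusted p = 0.000243). Dnase1l3, a secreted DNase of macrophages and dendritic cells, changed by 7.24, the inhibitory myeloid receptor gene Cd300lf by 6.51, and Slamf7, a receptor of activated immune cells, by 6.25 on the log2 scale. Il12b, the shared subunit of interleukins 12 and 23, had 686, 961 and 25.5 in the cKO-labelled libraries and 12.7, 0 and 1.03 in the flox controls (log2 change 6.42, adjusted p = 0.0421), and cKO-labelled libraries 1 and 2 were 26.9 and 37.6 times library 3. Pdyn, the precursor of dynorphin opioid peptides and a neuronal gene in most of the brain, had 272, 893 and 38.3 in the cKO-labelled libraries and 0, 0 and 2.05 in the flox controls (log2 change 7.19, adjusted p = 0.0154). The calls of Irg1, H2-M2, Serpina3f, C3, Cd300lf and Pdyn held in each fit with 1 library left out in which they were tested. The calls of Dnase1l3 and Slamf7 were lost without cKO-labelled library 2 (adjusted p between 0.0502 and 0.053). The call of Il12b was lost without cKO-labelled library 1 or 2 or without flox control library 2 or 3 (adjusted p between 0.0909 and 0.168). Irg1, Serpina3f, Cd300lf and Pdyn could not be tested without a cKO-labelled library, because fewer than 3 libraries then reached the minimum value.

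**Figure D2:**
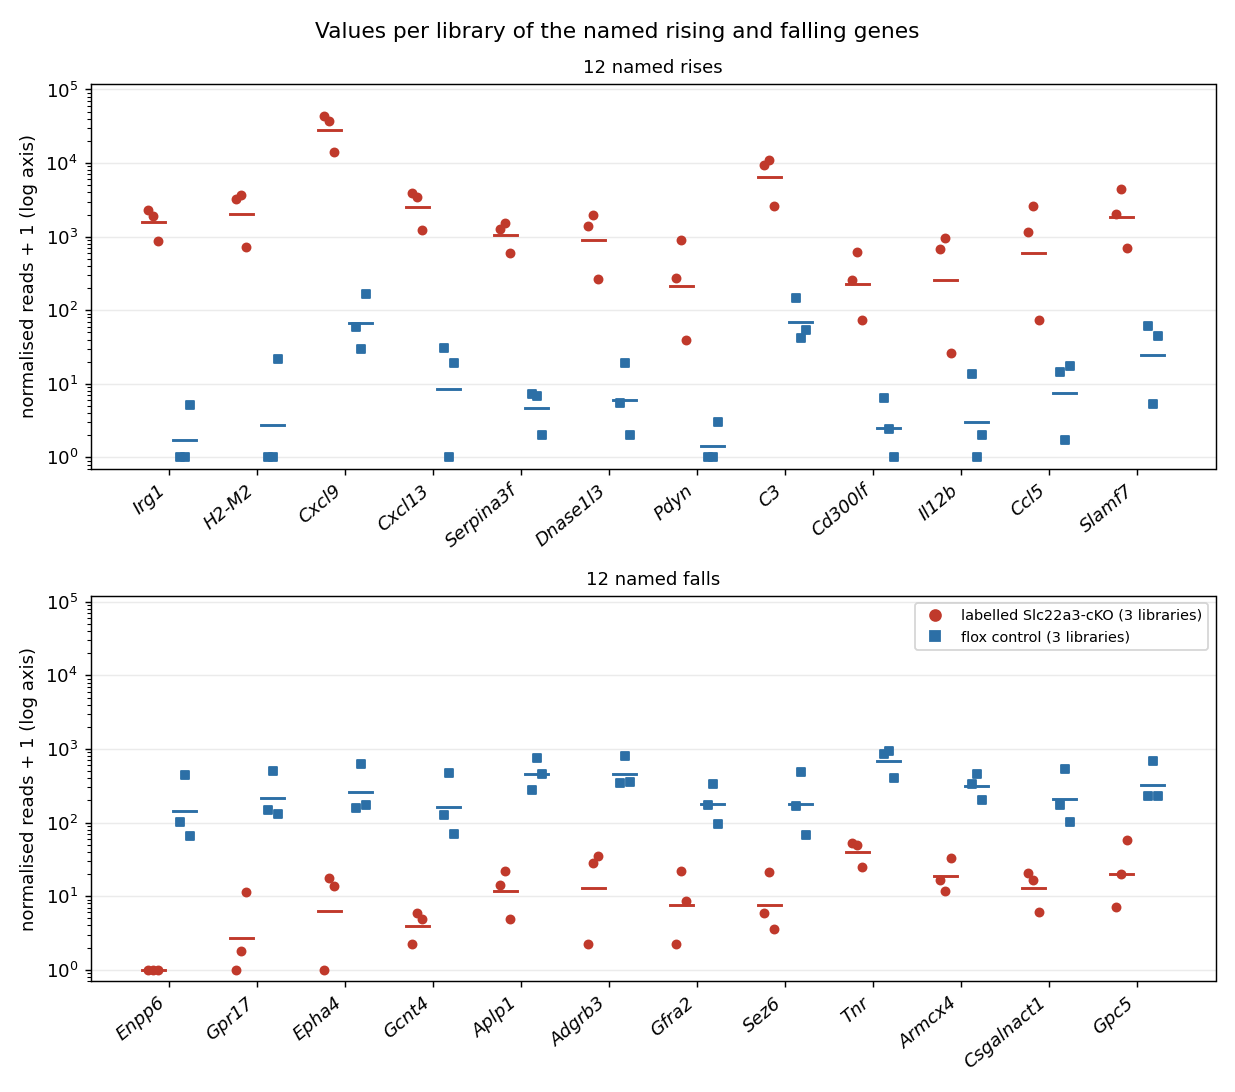
Normalised reads + 1 on a log axis for the 12 called genes with the largest rises (top) and the 12 with the largest falls (bottom), among those whose higher group mean reached the median level of the tested genes (182 normalised reads), with groups that do not overlap and gene models left out. Red circles on the left are the 3 cKO-labelled libraries, blue squares on the right the 3 flox controls, and lines the geometric means. The groups do not overlap for any of the 24 genes, and Enpp6 is at 0 in all 3 cKO-labelled libraries.

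Chemokines that attract T cells rose together. Of 7 tested genes of this list, 6 were called higher and none lower, with a median log2 change of 6.13. Cxcl9, a ligand of Cxcr3, a chemokine receptor of T cells, that is induced chiefly by interferon-gamma, lies on chromosome 5 between 92321347 and 92328079. It had 43368, 36848 and 14192 normalised reads in the cKO-labelled libraries and 57.4, 28.9 and 165 in the flox controls. The lowest cKO-labelled library was thus 85.8 times the highest control, and the log2 change was 8.74 (SE 0.578, adjusted p = 5.52e-05), the smallest adjusted p of all genes. Cxcl10, another Cxcr3 ligand, had 4196, 5203 and 891 in the cKO-labelled libraries and 252, 186 and 293 in the flox controls (log2 change 3.49, adjusted p = 0.0102), and cKO-labelled libraries 1 and 2 were 4.71 and 5.84 times library 3. Cxcl11, the remaining Cxcr3 ligand, had 428, 398 and 17.9 in the cKO-labelled libraries and 0, 3.61 and 1.03 in the flox controls (log2 change 6.13, adjusted p = 0.0403). Cxcl13, which attracts B cells, changed by 8.24, Ccl5, made by T cells and activated macrophages, by 6.32, and Cxcl16, a ligand of Cxcr6, by 2.63 on the log2 scale. The calls of Cxcl9 and Cxcl13 held in each fit with 1 library left out in which they were tested. The call of Cxcl10 was lost without cKO-labelled library 1 or 2 (adjusted p between 0.0617 and 0.077). The call of Cxcl11 was lost without flox control library 1, 2 or 3 (adjusted p between 0.0802 and 0.103). The call of Ccl5 was lost without cKO-labelled library 1 or 2 or without flox control library 2 (adjusted p between 0.0713 and 0.13). The call of Cxcl16 was lost without cKO-labelled library 2 (adjusted p = 0.051). Cxcl11 could not be tested without a cKO-labelled library, because fewer than 3 libraries then reached the minimum value.

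Transcripts of T cells and natural killer cells were few. The summed level of 27 of their markers was 159, 332 and 47.1 RPM in the cKO-labelled libraries and 68.2, 41.7 and 39 RPM in the flox controls. Of the 27 markers, 11 were at 0 in every flox control, among them Cd3e, Cd3g, Cd8b1 and Nkg7, against 3 in every cKO-labelled library. Nkg7 had 0, 49 and 0 reads in the cKO-labelled libraries. Cd8a had 3, 56 and 22 reads in the cKO-labelled libraries and 9, 1 and 0 in the flox controls (exact two-sided permutation p = 0.2). Of the 6 markers that passed the minimum value, 4 had a positive and 2 a negative log2 change, with 1 called higher. The marker called was Ccl5, which is also counted in the chemokine list above and is made by activated macrophages too. Cd8b1, a chain of the cytotoxic T cell coreceptor, had 33, 25 and 2 reads in the cKO-labelled libraries, and 0, 0 and 0 in the flox controls (exact two-sided permutation p = 0.1, the smallest possible). Cd3e, a T cell receptor subunit, had 5, 21 and 0 reads in the cKO-labelled libraries and none in the controls (exact p = 0.4). Ifng, the gene of interferon-gamma, had 9, 15 and 0 reads in the cKO-labelled libraries and 0, 1 and 0 in the flox controls (exact p = 0.4), which does not separate the groups at this depth. None of the 13 interferon genes of the list passed the minimum value for testing. The part of these cells in the interferon-related changes was not tested.

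Class II antigen presentation genes rose by large folds. Of 15 tested genes, 10 were called higher and none lower, with a median of 3.71, and the groups did not overlap for any of the 15. H2-Aa and H2-Ab1 encode the alpha and beta chains of the class II molecule. H2-Aa had 9341, 13572 and 3144 normalised reads in the cKO-labelled libraries and 165, 193 and 200.3 in the flox controls (log2 change 5.30, SE 0.464, adjusted p = 0.000243). Cd74, the invariant chain that guides class II molecules to the endosome, had 20861, 30488 and 7488 in the cKO-labelled libraries and 511, 334 and 327 in the flox controls (log2 change 5.46, SE 0.451, adjusted p = 0.000175). In both genes the second cKO-labelled library was highest and the third lowest, and the third was still 15.7 times the highest control for H2-Aa and 14.7 times for Cd74. Ciita, the coactivator without which class II genes stay off, had 919, 2099 and 651 in the cKO-labelled libraries and 26.4, 28.2 and 83.2 in the flox controls (log2 change 4.73, adjusted p = 0.00239). H2-Ab1 and H2-Eb1 changed by 5.61 and 5.20, and the costimulatory ligand gene Cd86 by 2.05. The calls of H2-Aa, Cd74, Ciita, H2-Ab1 and H2-Eb1 held in each fit with 1 library left out in which they were tested. The call of Cd86 was lost without cKO-labelled library 1 or 2 or without flox control library 2 (adjusted p between 0.0984 and 0.123). H2 genes are close paralogs, and reads may be split between them.

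Class I genes rose in part. Of 21 tested genes, 8 were called higher and none lower, and the median was 2.06. B2m, the light chain of class I molecules, had 41059.5, 65496 and 22025 normalised reads in the cKO-labelled libraries and 7583, 8757 and 12381 in the flox controls (log2 change 2.06, adjusted p = 0.0218). Nlrc5, the class I counterpart of Ciita, had 2060.2, 2442 and 1049.9 in the cKO-labelled libraries and 85.6, 26.7 and 278 in the flox controls (log2 change 4.32, adjusted p = 0.0102). The heavy chain genes H2-K1, H2-D1 and H2-Q4 changed by 2.60, 2.55 and 2.56, and Tap1, a subunit of the peptide pump, by 3.09 on the log2 scale. The call of H2-Q4 held in each fit with 1 library left out in which it was tested. The calls of Nlrc5, H2-D1 and Tap1 were lost without cKO-labelled library 1 or 2 (adjusted p between 0.0592 and 0.0827). The call of B2m was lost without cKO-labelled library 1 or 2 or without flox control library 1 (adjusted p between 0.068 and 0.108). The call of H2-K1 was lost without cKO-labelled library 1 (adjusted p = 0.0563). Without the third cKO-labelled library, 16 class I members were called higher, and without cKO-labelled library 1 or 2 the number was 1 or 2.

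All GBP genes tested, 11 of 11, were called higher, with log2 changes between 2.36 and 6.12 and a median of 3.28. The 5 genes of the chromosome 3 cluster, which spans 144 kb from 142493978 to 142638008, and the 6 genes of the chromosome 5 cluster, which spans 332 kb from 105014150 to 105346472, were called higher in full. Gbp2 had 6969, 7659 and 1626 normalised reads in the cKO-labelled libraries and 114, 70.8 and 167 in the flox controls (log2 change 5.31, SE 0.56, adjusted p = 0.000584). Gbp6 had 14614, 12073 and 10163 in the cKO-labelled libraries and 1474, 1570.3 and 1926 in the flox controls (log2 change 2.88, SE 0.271, adjusted p = 0.000269). For Gbp2, cKO-labelled libraries 1 and 2 were 4.29 and 4.71 times library 3, whereas for Gbp6 the highest cKO-labelled library was 1.44 times the lowest. The others named by the smallest p were Gbp4 (5.88), Gbp8 (5.16), Gbp10 (2.92) and Gbp3 (2.57). With 1 library left out, between 8 and 11 GBP genes were called higher.

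The IRG genes likewise rose in 11 of 11 genes tested, with log2 changes between 1.57 and 4.37 and a median of 3.39. On chromosome 11 lie 8 of the 11 genes, in groups far apart: Irgm1, Gm12185, Tgtp1, Tgtp2 and Ifi47 between 48861968 and 49096974, and Gm12250, Igtp and Irgm2 between 58187739 and 58222782. The annotated spans of Igtp and Irgm2 overlap, so their reads may be shared. Iigp1, an effector that is loaded onto pathogen vacuoles, had 8812, 7605 and 5782 normalised reads in the cKO-labelled libraries and 496, 223 and 391 in the flox controls (log2 change 4.37, SE 0.349, adjusted p = 0.000175). Irgm1, a regulator that keeps effector IRGs off the cell's own membranes, had 2529, 2724 and 3083 in the cKO-labelled libraries and 535, 577 and 755 in the flox controls (log2 change 2.17, SE 0.292, adjusted p = 0.00322). Its highest cKO-labelled value was in the third library, so this library was not lowest throughout. Tgtp1, Tgtp2, Ifi47 and F830016B08Rik changed by 3.39, 3.47, 2.84 and 3.79. Tgtp1 and Tgtp2 are near-identical neighbours and the GBP genes are close paralogs, so the split of reads between them is uncertain. Between 7 and 11 IRG genes were called higher with 1 library left out.

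Promoters were searched for the interferon motifs, since the GBP and IRG genes rose together. The windows ran from 250 bases before to 50 bases after each gene's start (RefSeq, GRCm38.p6), and the motifs were TTTC, 2 bases of any kind and TTTC again for ISRE, and TTCNNNGAA for GAS, on both strands. Of the 184 genes called higher, 134 had a window, and of these 26.1% held an ISRE match, beside 3.89% of the 10617 tested genes with a window and 3.20% of the 125 genes called lower. GAS matches were in 17.2% of the genes called higher, 8.37% of those tested and 8.80% of those called lower. Over all 27025 promoters of the table the shares were 3.99% for ISRE and 9.55% for GAS. The GBP genes with a window held an ISRE match in 5 of 5 and the IRG genes in 7 of 8. The motif was in 24 of 45 windows of the type I antiviral list, 4 of 16 of the class I list, 3 of 26 of the STAT, IRF and SOCS list, 1 of 3 of the chemokine list, 1 of 10 of the class II list and 1 of 13 of the complement list. In the synaptic list, where no gene was called higher, it was in 3 of 23 windows. Cxcl9, the chemokine with the smallest p, held neither motif in its window. The stretches below run from 120 bases before to 20 bases after the start, 5' to 3' on the gene's strand, with motif matches in capitals, and show where the matches sit in genes that rose. Gbp2 (chr3:142620543-142620682, plus strand) has an ISRE match that begins 59 bases before the start, and Gbp3 (chr3:142559924-142560063, plus strand) has overlapping ISRE matches that begin 45 and 39 bases before it. Igtp (chr11:58199436-58199575, plus strand), Tgtp1 (chr11:48992227-48992366, minus strand) and Tgtp2 (chr11:49064193-49064332, minus strand) each have a GAS match followed by an ISRE match that reads on the opposite strand. Irf1 (chr11:53769894-53770033, plus strand) has a GAS match only.
Gbp2: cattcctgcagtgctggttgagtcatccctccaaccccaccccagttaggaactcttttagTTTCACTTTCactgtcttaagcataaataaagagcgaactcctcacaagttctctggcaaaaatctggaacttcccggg
Gbp3: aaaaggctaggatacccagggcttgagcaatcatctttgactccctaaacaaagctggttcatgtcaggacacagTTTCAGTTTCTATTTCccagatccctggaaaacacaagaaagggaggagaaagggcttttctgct
Igtp: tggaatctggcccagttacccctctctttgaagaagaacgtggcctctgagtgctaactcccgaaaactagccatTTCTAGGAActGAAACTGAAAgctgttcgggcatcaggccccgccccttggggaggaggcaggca
Tgtp1: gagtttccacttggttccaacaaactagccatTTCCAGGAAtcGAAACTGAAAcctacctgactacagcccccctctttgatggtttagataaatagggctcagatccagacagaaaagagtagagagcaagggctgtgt
Tgtp2: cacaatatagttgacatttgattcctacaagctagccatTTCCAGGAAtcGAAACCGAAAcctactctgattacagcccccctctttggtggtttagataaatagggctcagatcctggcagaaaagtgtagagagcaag
Irf1: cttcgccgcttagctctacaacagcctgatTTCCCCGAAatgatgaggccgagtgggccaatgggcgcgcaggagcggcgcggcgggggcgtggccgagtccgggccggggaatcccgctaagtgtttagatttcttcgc
A match describes the letters in the window and was not tested as a binding site.

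Antiviral genes known from the type I interferon response rose in part. Of 60 tested genes, 25 were called higher and none lower, with a median of 1.98, and the groups did not overlap for 45. Oas2, an enzyme that senses double-stranded RNA, had 1145, 1102 and 828 normalised reads in the cKO-labelled libraries and 101, 27.5 and 90.4 in the flox controls (log2 change 3.98, SE 0.542, adjusted p = 0.00332). The related DNA sensor genes Ifi204, Ifi205 and Mnda changed by 3.36, 4.48 and 3.76, the chaperone gene Rtp4 by 2.41, and Ly6e, a surface protein that limits virus entry, by 1.97. Ifi204, Ifi205 and Mnda belong to a family of close paralogs, so the split of reads between them is uncertain. The calls of Oas2 and Ifi204 held in each fit with 1 library left out in which they were tested. The calls of Rtp4 and Ly6e were lost without cKO-labelled library 1 (adjusted p between 0.0526 and 0.077). The call of Ifi205 was lost without cKO-labelled library 2 (adjusted p = 0.053). The call of Mnda was lost without cKO-labelled library 1 or 2 (adjusted p between 0.068 and 0.077). The count of this list moved with single libraries, with 3 called higher without cKO-labelled library 1, 5 without library 2, 43 without library 3, and 20, 8 and 13 without flox control library 1, 2 or 3. Many of these genes are also targets of interferon-gamma, so the list does not tell the interferon types apart.

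The signalling genes of the pathway moved less. Of 33 tested STAT, IRF and SOCS genes, 5 were called higher and none lower, with a median of 0.43. Irf1 had 2699.9, 2632 and 1613 normalised reads in the cKO-labelled libraries and 650.01, 632 and 654 in the flox controls (log2 change 1.80, adjusted p = 0.0134). Irf7, an amplifier of type I interferon, changed by 3.74, Stat2 by 2.00 and the interferon-induced factor gene Batf2 by 5.74. Stat3, the transducer of interleukin 6 signals, did not pass (0.97, adjusted p = 0.106). The call of Irf1 was lost without cKO-labelled library 1 or 2 or without flox control library 1 (adjusted p between 0.0501 and 0.0831). The call of Irf7 was lost without cKO-labelled library 2 (adjusted p = 0.0669). The call of Stat2 was lost without cKO-labelled library 1 or 2 or without flox control library 1 or 2 (adjusted p between 0.0603 and 0.132). The call of Batf2 was lost without flox control library 1, 2 or 3 (adjusted p between 0.0571 and 0.139). Batf2 could not be tested without a cKO-labelled library, because fewer than 3 libraries then reached the minimum value.

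Inflammatory cytokines and their inhibitors rose in part. Of 27 tested members, 7 were called higher and 1 lower, the last being Cxcl14. Il1b, the gene of interleukin 1 beta, had 13181, 13600.4 and 8639 normalised reads in the cKO-labelled libraries and 3955, 1228 and 2724 in the flox controls (log2 change 2.29, adjusted p = 0.0137). The monocyte chemoattractant genes Ccl8 and Ccl12 changed by 4.76 and 3.10, and Osm, a cytokine of the interleukin 6 family, by 2.67. Il1rn and Il18bp, which encode inhibitors of interleukins 1 and 18, changed by 4.64 and 3.31. The calls of Il1b and Ccl12 were lost without cKO-labelled library 1 or 2 (adjusted p between 0.0691 and 0.104). The calls of Ccl8 and Osm were lost without cKO-labelled library 2 (adjusted p between 0.0642 and 0.0679). The call of Il1rn was lost without cKO-labelled library 1 or 2 or without flox control library 2 (adjusted p between 0.0575 and 0.119). The call of Il18bp was lost without cKO-labelled library 1 or 2 or without flox control library 1 or 3 (adjusted p between 0.0666 and 0.119). Without cKO-labelled library 1, 2 or 3, 2, 0 and 14 members were called higher.

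Complement and myeloid effector genes followed. Of 22 tested complement genes, 5 were called higher and none lower, with a median of 1.41. C4b had 6119, 9054 and 4422 normalised reads in the cKO-labelled libraries and 1006, 1062 and 1023 in the flox controls (log2 change 2.60, SE 0.309, adjusted p = 0.00145), with the highest control 1.06 times the lowest. Its near-identical copy C4a changed by 2.61, so the split of reads between the copies is uncertain. Cfb, the protease of the alternative pathway, changed by 4.45, and Itgax, a chain of complement receptor 4, by 3.65. Ptgs2, the inducible cyclooxygenase, had 8101, 6040.4 and 2929 in the cKO-labelled libraries and 494, 184 and 226 in the flox controls (log2 change 4.25, SE 0.453, adjusted p = 0.000605). Nos2, the inducible nitric oxide synthase, had 91.4, 13.1 and 222 in the cKO-labelled libraries and 0 reads in each flox control, at least 123-fold higher against a floor of 3 reads over the group (adjusted p = 0.0416). Cybb, the core of the phagocyte oxidase, changed by 3.53. The calls of C4b, Ptgs2 and Cybb held in each fit with 1 library left out in which they were tested. The calls of C4a and Itgax were lost without cKO-labelled library 1 or 2 (adjusted p between 0.0501 and 0.0813). The call of Cfb was lost without cKO-labelled library 2 (adjusted p = 0.0811). The call of Nos2 was lost without flox control library 1, 2 or 3 (adjusted p between 0.102 and 0.18). Nos2 could not be tested without a cKO-labelled library, because fewer than 3 libraries then reached the minimum value.

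Some microglial genes changed while most microglial markers did not pass the test. Of the 18 microglia markers tested, 0 were called higher and 1 lower by limma (edgeR called 0 and 1, DESeq2 4 and 1, and 7 had an unadjusted p under 0.05), with a median of 0.16. The receptor gene Csf1r, on which microglia depend, had 18647, 27116 and 11453 normalised reads in the cKO-labelled libraries and 18118, 10499.8 and 24106 in the flox controls (log2 change 0.11, adjusted p = 0.917). P2ry12, a purine receptor of resting microglia, had 11535, 13558 and 8997 in the cKO-labelled libraries and 14084, 9295 and 25436 in the flox controls (log2 change -0.41, adjusted p = 0.604). The groups overlapped for both. Fcrls, an Fc receptor-like gene of resting microglia, was the marker called lower, with 675, 969.6 and 419 in the cKO-labelled libraries and 2358, 1926 and 3429 in the flox controls (log2 change -1.94, adjusted p = 0.022).

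Genes of activated phagocytes rose in part. Of 23 genes of the disease-associated microglia state, 4 were called higher and none lower. They were the cystatin gene Cst7 (4.84), Itgax, the receptor kinase gene Axl (2.48) and the fungal glucan receptor gene Clec7a (2.92). Fcgr4, an activating receptor for immunoglobulin G, had 1142, 2918 and 498 normalised reads in the cKO-labelled libraries and 24.6, 16.6 and 17.5 in the flox controls (log2 change 5.87, SE 0.66, adjusted p = 0.000954). The protease gene Ctsc changed by 2.27 and the cathepsin inhibitor gene Cstb by 2.27. Cd274, which encodes the checkpoint ligand PD-L1, had 4755, 6642 and 2387 in the cKO-labelled libraries and 497, 415 and 238 in the flox controls (log2 change 3.52, SE 0.418, adjusted p = 0.00145). Of 17 tested genes that interact with T cells, 4 were called higher, among them the costimulatory receptor gene Cd40 (5.36) and the adhesion gene Cd48 (1.92). The calls of Cst7, Clec7a, Fcgr4 and Cd274 held in each fit with 1 library left out in which they were tested. The calls of Cstb and Cd48 were lost without cKO-labelled library 1 or 2 or without flox control library 1, 2 or 3 (adjusted p between 0.0649 and 0.146). The call of Axl was lost without cKO-labelled library 1 (adjusted p = 0.0527). The call of Ctsc was lost without cKO-labelled library 1 or 2 or without flox control library 2 (adjusted p between 0.0548 and 0.113). The call of Cd40 was lost without cKO-labelled library 1 or 2 or without flox control library 2 or 3 (adjusted p between 0.0894 and 0.151). The call of Fcrls was lost without cKO-labelled library 1 or without flox control library 1 or 3 (adjusted p between 0.0667 and 0.0919).

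The NF-kB and cell death lists had 3 genes called higher each by limma, of 18 and 24 tested, and edgeR called 2 and 1. Ikbke, a kinase of antiviral signalling, changed by 4.03, the adhesion gene Vcam1 by 2.19 and the tumour necrosis factor target Tnfaip2 by 2.67. Zbp1, a sensor of Z-form nucleic acids that can trigger cell death, had 1278, 2138 and 438 normalised reads in the cKO-labelled libraries and 57.4, 5.78 and 76 in the flox controls (log2 change 5.09, adjusted p = 0.0137). The inflammasome genes Nlrp1b and Naip2 changed by 2.15 and 1.70. These counts were between 0 and 4 and between 0 and 7 with 1 library left out. They reached 0 without cKO-labelled library 1 or 2 in both lists.

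**Figure D3:**
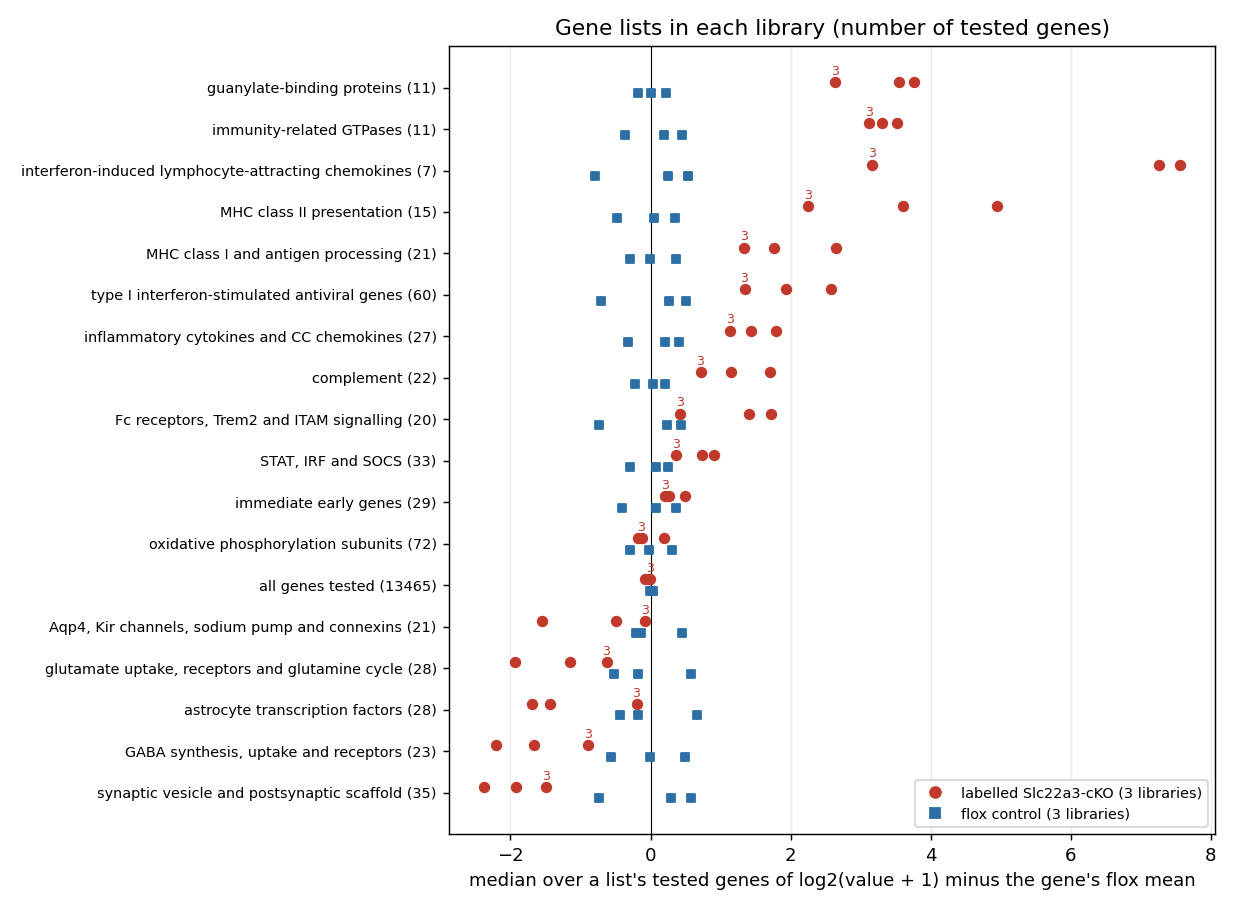
Median over each list's tested genes of log2(value + 1) minus the gene's mean in the flox controls (horizontal axis), for each cKO-labelled library (red circles, replicate 3 marked) and each flox control (blue squares). In the GBP, IRG, chemokine, class I and class II lists every cKO-labelled library lies above every flox control, and in the synaptic and GABA lists every cKO-labelled library lies below, with replicate 3 nearest the controls in each of these.

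The size of the rise differed between libraries in a common pattern. The median of the class II list relative to the flox control mean was 3.60, 4.95 and 2.25 in the cKO-labelled libraries, against 0.05, -0.48 and 0.35 in the flox controls. For the T cell-attracting chemokines it was 7.26, 7.57 and 3.16 in the cKO-labelled libraries, against 0.25, -0.79 and 0.53 in the flox controls. The IRG list varied less, with 3.30, 3.52 and 3.12 in the cKO-labelled libraries and 0.20, -0.36 and 0.45 in the flox controls. Over all genes tested the same medians lay between -0.07 and 0.04 in all 6 libraries. The oxidative phosphorylation list showed no shift of this kind, with -0.18, 0.20 and -0.13 in the cKO-labelled libraries and -0.02, 0.31 and -0.29 in the flox controls.

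Genes of the oligodendrocyte lineage were among the falls. Enpp6, a choline phosphodiesterase of newly formed oligodendrocytes, had 0 reads in each cKO-labelled library and 100.1, 442 and 64.7 normalised reads in the flox controls, at least 183-fold lower against a floor of 3 reads over the group (adjusted p = 0.0105). Gpr17, a receptor of committed oligodendrocyte precursors, had 0, 0.82 and 10.2 in the cKO-labelled libraries and 147, 504 and 130.5 in the flox controls (log2 change -6.29, SE 1.15, adjusted p = 0.018). Of 12 oligodendrocyte precursor markers tested, 3 were called lower and none higher, the third being the proteoglycan gene Vcan (-3.80), and the median was -2.93. edgeR called 2 of these markers lower and did not call Vcan. The marker sum was 128, 76.5 and 261 RPM in the cKO-labelled libraries and 389.7, 566 and 279.9 RPM in the flox controls, and Neu4 was at 0 in every cKO-labelled library beside Enpp6. Of 11 markers of mature oligodendrocytes tested, limma and edgeR called 0 and DESeq2 called 4 lower, with 4 at an unadjusted p under 0.05, and the sum of all 12 was 2329.8, 818 and 3944 RPM in the cKO-labelled libraries and 1746, 4036 and 2959 RPM in the flox controls. The call of Enpp6 held in each fit with 1 library left out in which it was tested. The calls of Gpr17 and Vcan were lost without cKO-labelled library 1 or 2 or without flox control library 1, 2 or 3 (adjusted p between 0.0526 and 0.216). Enpp6 could not be tested without a flox control library, because fewer than 3 libraries then reached the minimum value.

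Other leading falls were genes of neural surfaces and matrix. Aplp1, a relative of the amyloid precursor protein, had 13.4, 21.3 and 3.83 normalised reads in the cKO-labelled libraries and 279, 765 and 453 in the flox controls (log2 change -5.31, SE 0.793, adjusted p = 0.00583). Tnr, the perineuronal matrix protein tenascin-R, had 51.2, 49.2 and 24.3 in the cKO-labelled libraries and 855, 951 and 407 in the flox controls (log2 change -4.10, SE 0.564, adjusted p = 0.00355), with the lowest control 7.95 times the highest cKO-labelled library. Epha4, a receptor of ephrins, changed by -5.39, the adhesion receptor gene Adgrb3 by -5.15, Gfra2, a coreceptor for neurturin, by -4.55, and Gpc5, a heparan sulfate proteoglycan, by -4.02. The glycosyltransferase genes Gcnt4 and Csgalnact1 changed by -5.36 and -4.04, Sez6, a regulator of dendrites, by -4.53, and Armcx4 by -4.09. The call of Tnr held in each fit with 1 library left out in which it was tested. The calls of Epha4, Gfra2, Gpc5, Csgalnact1 and Sez6 were lost without cKO-labelled library 1 or 2 or without flox control library 1, 2 or 3 (adjusted p between 0.0552 and 0.346). The call of Aplp1 was lost without flox control library 2 (adjusted p = 0.0575). The call of Adgrb3 was lost without cKO-labelled library 2 or without flox control library 1, 2 or 3 (adjusted p between 0.0552 and 0.143). The call of Gcnt4 was lost without cKO-labelled library 1 or 2 (adjusted p between 0.0552 and 0.072). The call of Armcx4 was lost without cKO-labelled library 2 or without flox control library 1 or 2 (adjusted p between 0.0502 and 0.123). Gcnt4 could not be tested without a flox control library, because fewer than 3 libraries then reached the minimum value.

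Synaptic genes fell in part. Of 35 tested genes of synaptic vesicles and postsynaptic scaffolds, 8 were called lower and none higher, with a median of -1.97. Snap25, a membrane fusion protein of nerve terminals, had 779, 1765 and 3635 normalised reads in the cKO-labelled libraries and 14118, 19916 and 5465 in the flox controls (log2 change -2.75, adjusted p = 0.028). Nrxn3, a presynaptic adhesion protein, had 91.4, 134 and 147 in the cKO-labelled libraries and 1721, 1707 and 652 in the flox controls (log2 change -3.34, SE 0.464, adjusted p = 0.00374). For both genes the first cKO-labelled library was lowest and the third highest, still under every control. Syp, Syt1 and Pclo, of synaptic vesicles and their release sites, changed by -2.59, -1.97 and -2.34. The call of Nrxn3 held in each fit with 1 library left out in which it was tested. The calls of Snap25, Syp, Syt1 and Pclo were lost without cKO-labelled library 1 or 2 or without flox control library 1 or 2 (adjusted p between 0.0526 and 0.144). Without the third cKO-labelled library, 17 were called lower, and without library 1 or 2 of that group or flox control library 1 or 2, only 1.

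Neuron markers were also lower, but the lists are not separate, since Snap25 and Syt1 belong to both. Snap25 alone ran between 75 and 380 RPM in the cKO-labelled libraries and between 597 and 2212 RPM in the flox controls. The sum of 14 neuron markers was 454, 417 and 1212 RPM in the cKO-labelled libraries and 3673, 4325 and 1478 RPM in the flox controls, and 3 of the 14 were called lower and none higher: Snap25, Syt1 and the neurofilament gene Nefm (-3.34). The sum of 21 olfactory bulb interneuron and neuroblast markers was 355, 332 and 589.8 RPM in the cKO-labelled libraries and 1763, 1584 and 782 RPM in the flox controls. Of these, 15 were tested and 1 was called lower, Dcx, the microtubule protein of migrating neuroblasts, with 19.5, 33.6 and 6.39 normalised reads in the cKO-labelled libraries and 181, 875 and 139.7 in the flox controls (log2 change -4.02, adjusted p = 0.0416). Dlx2, Calb1 and Trh were at 0 in every cKO-labelled library. The call of Nefm was lost without cKO-labelled library 1 or 2 or without flox control library 1 or 2 (adjusted p between 0.0526 and 0.183). The call of Dcx was lost without cKO-labelled library 1 or 2 or without flox control library 1, 2 or 3 (adjusted p between 0.0581 and 0.298). The part of fewer neuronal transcripts in the synaptic falls was not tested.

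**Figure D4:**
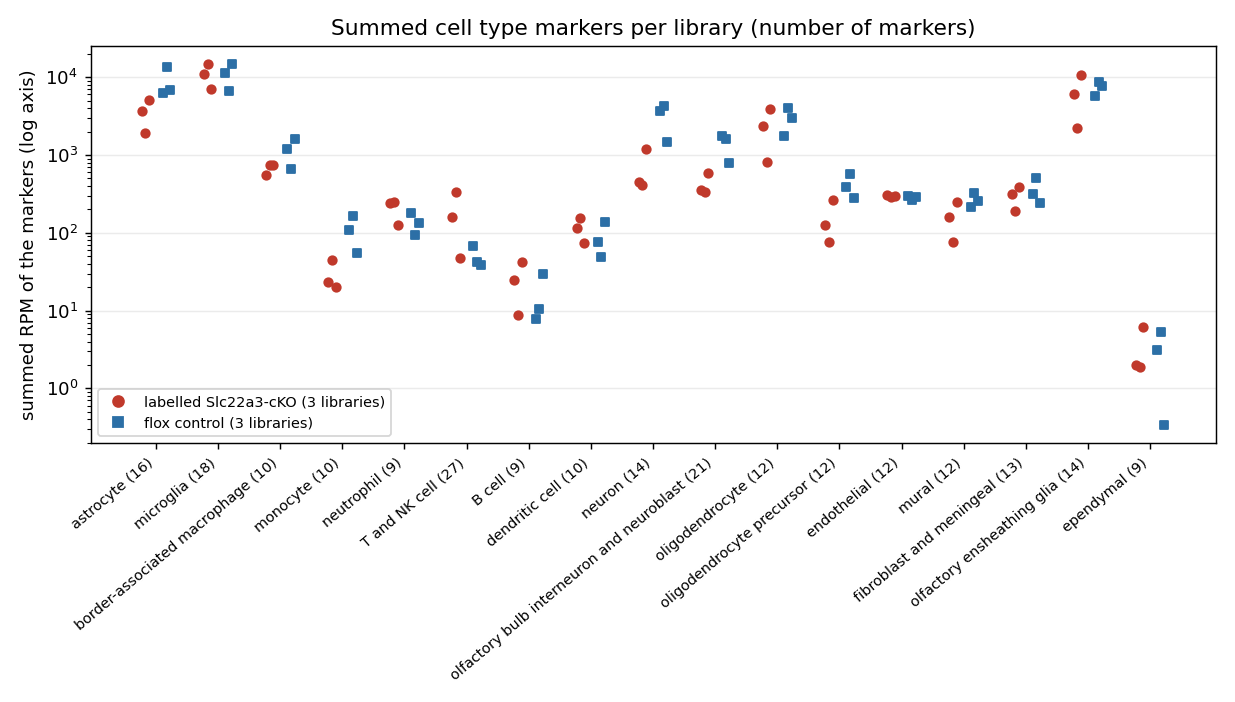
Summed RPM of the markers of 17 cell types (log axis) in each cKO-labelled library (red circles, left) and each flox control (blue squares, right). Neuron, olfactory bulb interneuron, oligodendrocyte precursor, monocyte and astrocyte sums are lower in every cKO-labelled library than in every flox control, and microglia, endothelial and ensheathing glia sums overlap. The monocyte list shares Vcan with the oligodendrocyte precursor list, and 2 of its 3 tested members had a positive log2 change. Slc1a2 is part of the astrocyte sum and Snap25 of the neuron sum, and both genes were called lower.

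The astrocyte transporter genes Slc6a11 and Slc1a2 fell. The astrocyte marker sum given above was also lower, and its part in these falls was not tested. Slc1a2 is itself among the 16 summed markers, so the sum is not separate from its fall. Slc1a2 ran between 272 and 873 RPM in the cKO-labelled libraries and between 1896 and 5178 RPM in the flox controls. Slc6a11, the astrocyte GABA transporter GAT3, had 431, 270.5 and 287 normalised reads in the cKO-labelled libraries and 2488, 9159 and 2397 in the flox controls (log2 change -3.55, SE 0.48, adjusted p = 0.00322). Of 23 tested GABA genes, 3 were called lower and none higher, among them Slc6a11 and the receptor subunit gene Gabra2 (-2.90). Gad1 and Gad2, the GABA-making enzymes, stood at -2.42 and -1.50 and did not pass (adjusted p = 0.0972 and 0.44). The call of Slc6a11 held in each fit with 1 library left out in which it was tested. The call of Gabra2 was lost without cKO-labelled library 1 or 2 or without flox control library 1, 2 or 3 (adjusted p between 0.0808 and 0.281). edgeR did not call Gabra2 either.

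Of 28 tested glutamate genes, 5 were called lower and none higher, with a median of -1.18. Slc1a2, the main glial glutamate transporter, had 6178, 2986 and 8354 normalised reads in the cKO-labelled libraries and 17067, 46624 and 17352 in the flox controls (log2 change -2.16, adjusted p = 0.0328). Gria2 and Gria1, subunits of AMPA receptors, changed by -3.25 and -2.13, the neuronal glutamate transporter gene Slc1a1 by -3.77 and the glutamine transporter gene Slc38a3 by -3.09. The call of Gria2 held in each fit with 1 library left out in which it was tested. The calls of Slc1a1 and Slc38a3 were lost without cKO-labelled library 1 or 2 or without flox control library 1, 2 or 3 (adjusted p between 0.0649 and 0.265). The call of Slc1a2 was lost without cKO-labelled library 1 or 2 or without flox control library 2 (adjusted p between 0.0837 and 0.114). The call of Gria1 was lost without cKO-labelled library 1 or 2 or without flox control library 1 or 2 (adjusted p between 0.109 and 0.265).

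Other astrocyte genes moved unevenly. Aqp4, the water channel of astrocyte endfeet, had 859, 807 and 926 normalised reads in the cKO-labelled libraries and 3835, 6211 and 3983 in the flox controls (log2 change -2.40, SE 0.293, adjusted p = 0.00171), with the highest cKO-labelled library 1.15 times the lowest. Of 16 astrocyte markers, Aqp4, Slc1a2 and Fgfr3 (-3.84) were called lower and none higher. Gfap had 327, 140.2 and 241 in the cKO-labelled libraries and 392.4, 390.2 and 160.2 in the flox controls, with overlapping groups (log2 change -0.38, adjusted p = 0.758). Aldh1l1, a folate enzyme of astrocytes, and Sox9, an astrocyte transcription factor, stood at 0.34 and -0.88 (adjusted p = 0.81 and 0.48). Aldh1l1 was at -0.079 without flox control library 1. Of 28 tested astrocyte transcription factors, the nuclear receptor gene Rorb was the member called, with 63.4, 101 and 114 in the cKO-labelled libraries and 571, 2271 and 672 in the flox controls (log2 change -3.39, adjusted p = 0.0105). Atp1b1, a sodium pump subunit, changed by -2.01. The call of Aqp4 held in each fit with 1 library left out in which it was tested. The calls of Fgfr3 and Atp1b1 were lost without cKO-labelled library 1 or 2 or without flox control library 1 or 2 (adjusted p between 0.051 and 0.156). The call of Rorb was lost without cKO-labelled library 1 or 2 or without flox control library 2 (adjusted p between 0.0501 and 0.0582).

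Genes of the astrocyte filament and reactive list moved in both directions. Of 24 tested, 14 had a positive and 10 a negative log2 change, with a median of 0.30. The cell type in which these genes changed was not tested. Of the 24 genes, 8 were called higher and none lower. They were the interferon targets Gbp2, Iigp1, H2-D1, H2-T23 and Cxcl10, the ferroxidase gene Cp, Cd44 and Srgn. Srgn, a proteoglycan of secretory granules, had 4127, 3109 and 1802 normalised reads in the cKO-labelled libraries and 392.4, 195 and 778 in the flox controls (log2 change 2.86, adjusted p = 0.0121). The hyaluronan receptor gene Cd44 had 379, 899 and 398 in the cKO-labelled libraries and 73.7, 138 and 71.9 in the flox controls (adjusted p = 0.0329). The call of Srgn was lost without cKO-labelled library 1 or 2 (adjusted p between 0.0668 and 0.0831). The call of Cd44 was lost without cKO-labelled library 1 or 2 or without flox control library 1, 2 or 3 (adjusted p between 0.0526 and 0.11).

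Genes of monoamine handling, for which Slc22a3 is known, were mostly low. Of 16 organic cation and monoamine transporters, 5 passed the minimum value and 0 were called by limma, edgeR or DESeq2, with 1 at an unadjusted p under 0.05. Slc29a4, the plasma membrane monoamine transporter, had 0, 0 and 0 reads in the cKO-labelled libraries and 26, 45 and 4 in the flox controls (exact two-sided permutation p = 0.1, the smallest possible), and it was not among the genes tested across the table. Slc22a2, a relative of Slc22a3, had 0, 9 and 32 reads in the cKO-labelled libraries and 0, 7 and 0 in the flox controls (exact p = 0.4). Maoa and Maob, the monoamine oxidases, stood at -1.05 and -0.41 (adjusted p = 0.292 and 0.781), and Maob was at 0.34 without cKO-labelled library 2. Tgm2, a transglutaminase that can attach serotonin to proteins, had 1317, 1692 and 699 normalised reads in the cKO-labelled libraries and 169, 239 and 294 in the flox controls (log2 change 2.34, SE 0.42, adjusted p = 0.0159). Kynu, an enzyme of tryptophan breakdown, had 68.2, 128 and 234 in the cKO-labelled libraries and 1.82, 5.06 and 5.14 in the flox controls (log2 change 4.76, adjusted p = 0.0299). Tgm2 and Kynu were the only calls among the 14 tested genes of monoamine breakdown, synthesis and transamidation. Htr2c, a serotonin receptor, had 0, 8.2 and 0 in the cKO-labelled libraries and 88.3, 128 and 21.6 in the flox controls and did not pass (adjusted p = 0.071). The call of Tgm2 was lost without cKO-labelled library 1 or 2 or without flox control library 1 (adjusted p between 0.0606 and 0.0889). The call of Kynu was lost without flox control library 1, 2 or 3 (adjusted p between 0.0532 and 0.0889). Kynu could not be tested without a cKO-labelled library, because fewer than 3 libraries then reached the minimum value.

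Activity-induced genes rose in part. Of 29 tested, 3 were called higher and none lower. Nr4a3, a nuclear receptor, had 3409, 3803 and 2531 normalised reads in the cKO-labelled libraries and 385, 261 and 284 in the flox controls (log2 change 3.39, SE 0.321, adjusted p = 0.000269). The zinc finger genes Egr3 and Egr2 changed by 2.00 and 1.44, while their relative Egr1 stood at -0.51 with 19095, 20906 and 20435 in the cKO-labelled libraries and 29148, 29129 and 27813 in the flox controls (adjusted p = 0.343). Fos stood at 0.71 (adjusted p = 0.291). Npas4, which neurons induce on depolarisation, had 0, 0 and 2.55 in the cKO-labelled libraries and 48.3, 83.8 and 32.9 in the flox controls and did not pass (adjusted p = 0.0522). The call of Nr4a3 held in each fit with 1 library left out in which it was tested. The call of Egr3 was lost without cKO-labelled library 1 or 2 (adjusted p between 0.0668 and 0.097). The call of Egr2 was lost without cKO-labelled library 1 or 2 or without flox control library 1, 2 or 3 (adjusted p between 0.0522 and 0.123). Of 72 tested oxidative phosphorylation genes, limma and edgeR called 0 and DESeq2 1, with 2 at an unadjusted p under 0.05. Of 25 glycolysis genes, limma and edgeR called 0 and DESeq2 1 higher and 2 lower, with 6 at an unadjusted p under 0.05.

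The nearest other comparison of the series is that of Gq-CNO with Gq-Saline in cells labelled mCh neurons of the same tissue, from Aldh1l1-GFP mice. CNO, clozapine-N-oxide, is the ligand of designer receptors, and Gq is a class of G protein to which some of these receptors couple. A joint fit of the 12 libraries asked which changes differed between the 2 comparisons. Of 13722 genes tested, 30 (0.219%) had a difference of effects, with 9 (0.0656%) more positive in the cKO comparison and 21 (0.153%) more negative. edgeR called 10 and 36 in these directions. All 9 and 20 of the 21 limma calls were also called in the cKO comparison itself. In this fit limma called 0 genes between Gq-CNO and Gq-Saline, with 1072 at an unadjusted p under 0.05. Without cKO-labelled library 1, 2 or 3 the difference was called for 1, 6 and 32 genes more positive and for 12, 30 and 81 more negative. Without flox control library 1, 2 or 3 the numbers were 6, 2 and 15 more positive and 14, 6 and 29 more negative. The 2 experiments also differ in mouse line, labelled cell type, sex-linked transcripts and oligodendrocyte marker levels, and these differences cannot be told apart from the treatments. The Y-linked gene Ddx3y had 0 reads in all 6 cKO-labelled and flox control libraries and ran between 48.5 and 99.4 RPM in the Gq-CNO and between 0.57 and 77.7 RPM in the Gq-Saline mCh sorts of the olfactory bulb. Xist, expressed from the inactive X chromosome, ran between 6706 and 11180 RPM in the cKO-labelled libraries and 4056 and 6565 RPM in the flox controls, against 0 in the Gq-CNO libraries and at most 254 RPM in the Gq-Saline libraries. The oligodendrocyte marker sum ran between 818 and 3944 RPM in the cKO-labelled libraries and 1746 and 4036 RPM in the flox controls, against 26676 to 27007 RPM in the Gq-CNO libraries and 18483 to 38179 RPM in the Gq-Saline libraries.

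Cxcl9 changed by 8.77 in the cKO comparison and by 0.93 in the Gq-CNO comparison, a difference of 7.84 (SE 1.26, adjusted p = 0.0103). C3 changed by 6.58 and by -0.65 in the same order, a difference of 7.23 (SE 1.20, adjusted p = 0.0121), and H2-Aa by 5.36 and -0.71 (difference 6.06, adjusted p = 0.0400). The others named on this side were Serpina3f, Irg1 and H2-M2, of which Irg1 and H2-M2 had 0 reads in all 6 Gq-labelled libraries. edgeR did not call the difference for Irg1, H2-M2 or Cxcl9 (adjusted p between 0.0641 and 0.9998). DESeq2 called it for Cxcl9 (DESeq2 adjusted p = 1.3e-07) but not for Irg1 or H2-M2 (DESeq2 adjusted p = 0.185 and 0.459). On the other side, Aplp1 changed by -5.14 in the cKO comparison and by 0.86 in the Gq-CNO comparison, a difference of -6.00 (SE 0.759, adjusted p = 0.00242). Enpp6, Gareml, Adgrb3, Gpr17 and Gpc5 had differences between -6.14 and -4.59. The class II list had a median change of 3.44 in the cKO comparison and 0.18 in the Gq-CNO comparison, with 2 members called for the difference. The GBP list had 3.31 and -0.25, with 1 member called, and the IRG list 3.44 and -0.06, with 0 called by limma.

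**Figure D5:**
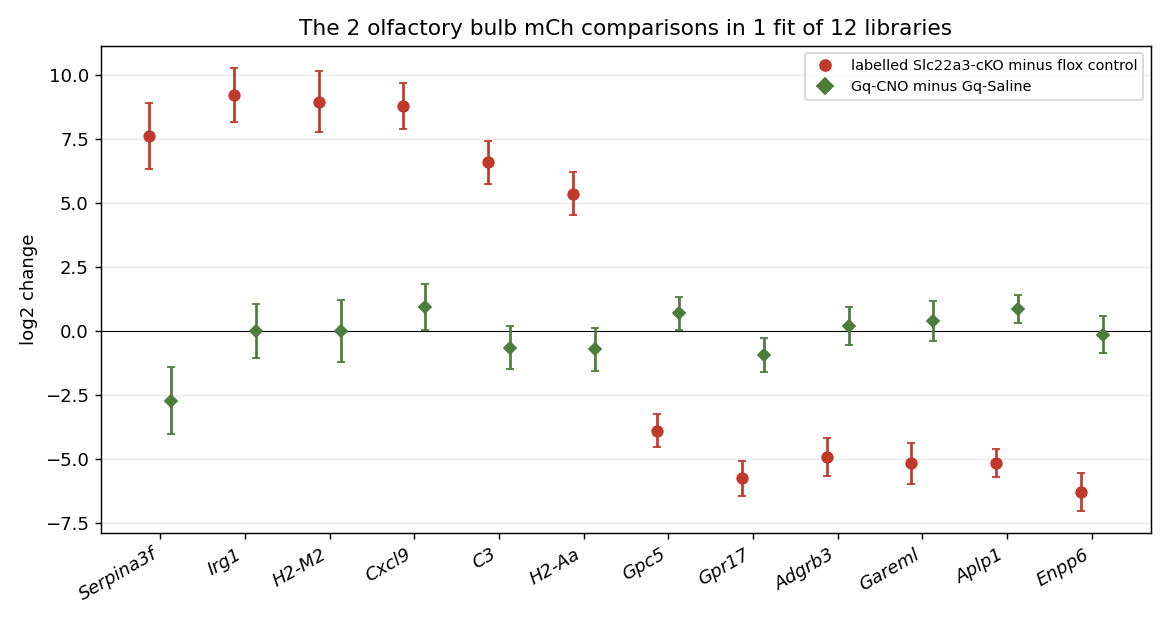
Log2 change of 12 genes in the cKO comparison (red circles, left) and in the Gq-CNO comparison (green diamonds, right) of olfactory bulb mCh sorts, from 1 limma fit of 12 libraries. Bars are standard errors, which are equal for both changes of a gene in this fit. The cKO changes run from 9.20 for Irg1 to -6.28 for Enpp6, and the Gq-CNO changes from 0.93 for Cxcl9 to -2.72 for Serpina3f.

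Levels in the other olfactory bulb groups give the scale of the interferon genes. Cxcl9 ran between 1482 and 4203 RPM in the cKO-labelled libraries, against 3.21 to 18.1 RPM in the flox controls, at most 1.31 RPM in the Gq-CNO and Gq-Saline mCh sorts and at most 24.9 RPM in the 12 libraries of green fluorescent astrocytes. Cd74 ran between 782 and 2780 RPM in the cKO-labelled libraries, against 35.7 to 57.9 RPM in the flox controls, 3.81 to 65.5 RPM in the Gq-CNO mCh sort and at most 3.48 RPM in the green fluorescent astrocytes. Csf1r, by contrast, ran between 1196 and 2473 RPM in the cKO-labelled libraries, 1166 and 2633 RPM in the flox controls, and 1041 and 2264 RPM in the Gq-CNO and Gq-Saline mCh sorts. P2ry12 ran between 940 and 1236 RPM in the cKO-labelled libraries and 1032 and 2779 RPM in the flox controls, above its ranges of 674 to 889 RPM in the Gq-CNO and 460.0 to 702 RPM in the Gq-Saline mCh sorts. In the olfactory bulb mCh sorts, the ranges of Csf1r thus overlapped between the experiments and those of P2ry12 did not.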

How the data were processed

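The report rests on bulk RNA sequencing of sorted olfactory bulb cells, 3 libraries labelled Slc22a3-cKO and 3 flox controls. Per the submitters' processing notes, FastQC 0.11.7, MultiQC 1.11, STAR 2.5.0a, DESeq2 1.30.1 and mm10 were used, without a stated order. The strand setting of the counting is not given in the sources used here, so overlapping and antisense genes cannot be told apart. The values deposited by the authors are a signal, gene read counts divided by 1 size factor per library within each table. Whole reads were recovered for 100% of values within 0.05 of a whole number. The table holds 24421 entries, of which 27 carry date-like names and were left as they are.

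A gene entered the test when 3 or more of the 6 libraries reached a normalised value of 10. limma 3.58.1 in R 4.3.3 compared the groups on the scale log2(value + 1), 2-sided, using a trend of variance on level, and p-values were adjusted by Benjamini-Hochberg over every gene that entered. Every adjusted p in the report is from limma unless another tool is named. Fold changes on this scale understate the change of low genes. edgeR 4.0.16 (quasi-likelihood) and DESeq2 1.42.0 on the recovered reads were alternatives. The 12-library fit used recovered reads with joint size factors. Single low genes had exact permutation tests. The code was tested on simulated data.

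Named genes were a fixed set, up to 6 members of each list by smallest p, and the 12 largest rises and the 12 largest falls among called genes without overlap whose higher group mean reached the median level of tested genes, gene models left out. Csf1r, P2ry12, Ddx3y, Xist and the T cell and natural killer cell genes were added after their values were seen. The members and lists were chosen with earlier results of these data known. Gene positions are from GENCODE on mm10, and promoters from RefSeq. Some members of the lists are counted but not reported here by name.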

Additional observations from a re-analysis of the deposited data

How the results depend on the processing

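The counts of called genes depended on the settings. With all 6 libraries 184 genes were called higher and 157 lower. Without the mean-variance trend these were 65 and 100, with DESeq2 497 and 657, and with 1 library left out between 47 and 545 higher and between 13 and 732 lower. A pseudocount of 0.1 gave 69 lower and a pseudocount of 5 gave 250 lower. Replicate numbers did not pair the libraries. Correlations between same-numbered libraries, taken on each gene's deviation from its group mean, were -0.0188, -0.0559 and -0.0935. A replicate block gave 77 higher and 28 lower. For the difference of effects, 9 genes were called more positive and 21 more negative. The numbers more positive were 3 and 19 with pseudocounts of 0.1 and 5, 2 without the filter, 17 with quantile scaling, 118 with DESeq2, 5 with the replicate block and between 1 and 32 with 1 library left out. The numbers more negative were 8 with a pseudocount of 0.1, 3 without the filter, 42 with quantile scaling, 12 without the trend, 36 with edgeR under TMM scaling, 34 with edgeR under RLE scaling, 235 with DESeq2, 10 with the block and between 6 and 81 with 1 library left out. The cause of these shifts was not tested. The uncalled log2 changes of 2 genes turned their sign with 1 library left out: Maob, at -0.41 with all libraries, ranged between -1.05 and 0.34, and Aldh1l1, at 0.34 with all libraries, ranged between -0.079 and 0.65. Of 125 named genes called, 44 kept their call in every fit with 1 library left out that tested them. Each fit without a cKO-labelled library tested 116 of the 125, and each fit without a flox control tested 122. The 44 thus include genes, such as Irg1 and Enpp6, that some of these fits could not test. With all 6 libraries, edgeR under TMM scaling kept 115 of the 125 calls, and limma without the mean-variance trend kept 52. Among the 10 that edgeR did not call were Gabra2, Gria1, Gfra2, Vcan, Cd40, Tnfaip2, Nlrp1b and Naip2.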

Other observations

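Cytosolic ribosomal protein genes, a set chosen after its values were seen, shifted upwards in the cKO-labelled libraries. All 73 tested had a positive log2 change, with a median of 1.19 by limma, 1.23 by edgeR and 1.08 after quantile scaling, beside -0.10 over all genes tested. Their groups did not overlap for 48 of the 73, beside 10.6% of all genes tested in that direction. limma called 6 of them higher, Rpl19, Rpl31, Rpl36a, Rpl39, Rplp0 and Rps25, and edgeR called 2. Ribosomal protein genes share reads with many processed pseudogenes, so their values are uncertain.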
